A study of Mus musculus with 10 samples.

Results

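The 10 genes described here encode transcription factors that set and change the fate of B cells: Pax5, Ebf1, Spib, Bach2, Bcl6, Prdm1, Xbp1, Tbx21, Zeb2 and Foxo1. They were taken by name from a table of 54532 genes, with earlier results of these data known, and each symbol stood on 1 row. RNA sequencing had been done on B cells from the spleen of mice, 5 libraries from a fibrosis group and 5 from a control group. The fibrosis group had received carbon tetrachloride (CCl4), a liver toxin, by intraperitoneal injection for 4 weeks, and the control group was wildtype. Strain, sex, age, a vehicle injection in the controls, the isolation of the B cells and the number of animals are not stated in the labels. Nothing in the labels says that libraries came from separate animals, so the p-values rest on the scatter of these libraries, part of which may be technical.

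In B cells, Ebf1, Pax5 and Foxo1 act together to start and hold the B cell programme, and Spib, an Ets factor related to PU.1, acts in mature B cells. Bach2 and Bcl6 are repressors of the activated and germinal centre B cell, and both hold back Prdm1. Prdm1 encodes Blimp-1, the repressor that shuts the B cell programme off in plasma cells, and Xbp1 drives the secretory apparatus of those cells. Tbx21 encodes T-bet, the factor of interferon-driven B cells and of class switching to IgG2a or IgG2c, which also acts in T cells and natural killer (NK) cells. Zeb2 encodes a zinc-finger repressor that is needed for age-associated B cells, a T-bet-bearing subset, and that is also expressed by macrophages and other cells.

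In fibrosis, Tbx21 rose 2.20-fold, with every fibrosis library above every control library. Zeb2 fell, although 1 fibrosis library lay within the control range. Ebf1 rose in the comparison of all libraries, but this call was lost in 12 of 23 alternative analyses. Pax5, Bach2, Foxo1, Prdm1 and Xbp1 did not pass the test, nor did Bcl6 and Spib, which lay nearer to the threshold. Of the 10 genes, 2 were called higher and 1 lower, where a gene was called when its Benjamini-Hochberg adjusted p over 14283 tested genes fell below 0.05 in the quasi-likelihood test of edgeR. Over all tested genes 35.7% were called, 18.6% as higher and 17.2% as lower, so the share among the 10 was not above the background. Changes are given as log2 fold changes, fibrosis minus control, ± standard error (SE), and levels as CPM, a gene's count relative to the TMM-scaled total of its library, as mean ± SD with n = 5 libraries in each group.

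The libraries held 13439100 to 17954551 counts. All 14 B cell markers checked were tested, and their summed level was 22190 to 24330 CPM in the control libraries and 23120 to 34880 CPM in the fibrosis libraries. Fibrosis 4 and 5 stood apart from fibrosis 1 to 3: they held the highest summed macrophage or monocyte, neutrophil and platelet marker levels of the fibrosis libraries and the lowest B cell marker levels. Neutrophil markers, for example, summed to 4076 and 4969 CPM there, against 475 to 1762 CPM in fibrosis 1 to 3. Against control, fibrosis 4 and 5 lay within the range of the B cell sum (23670 and 23120 CPM), and fibrosis 1 to 3 lay above it. For the macrophage or monocyte sum, fibrosis 1 to 3 (3439, 2760 and 2000 CPM) lay below the control range of 3658 to 5925 CPM. Fibrosis 4 and 5 lay above that range (5977 and 6771 CPM). The factors and most lists were also read without fibrosis 4 and 5. The libraries then left all lie outside the control range in both sums. In such bulk libraries, fewer cells of a type and less RNA per cell cannot be told apart.

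**Figure D1:**
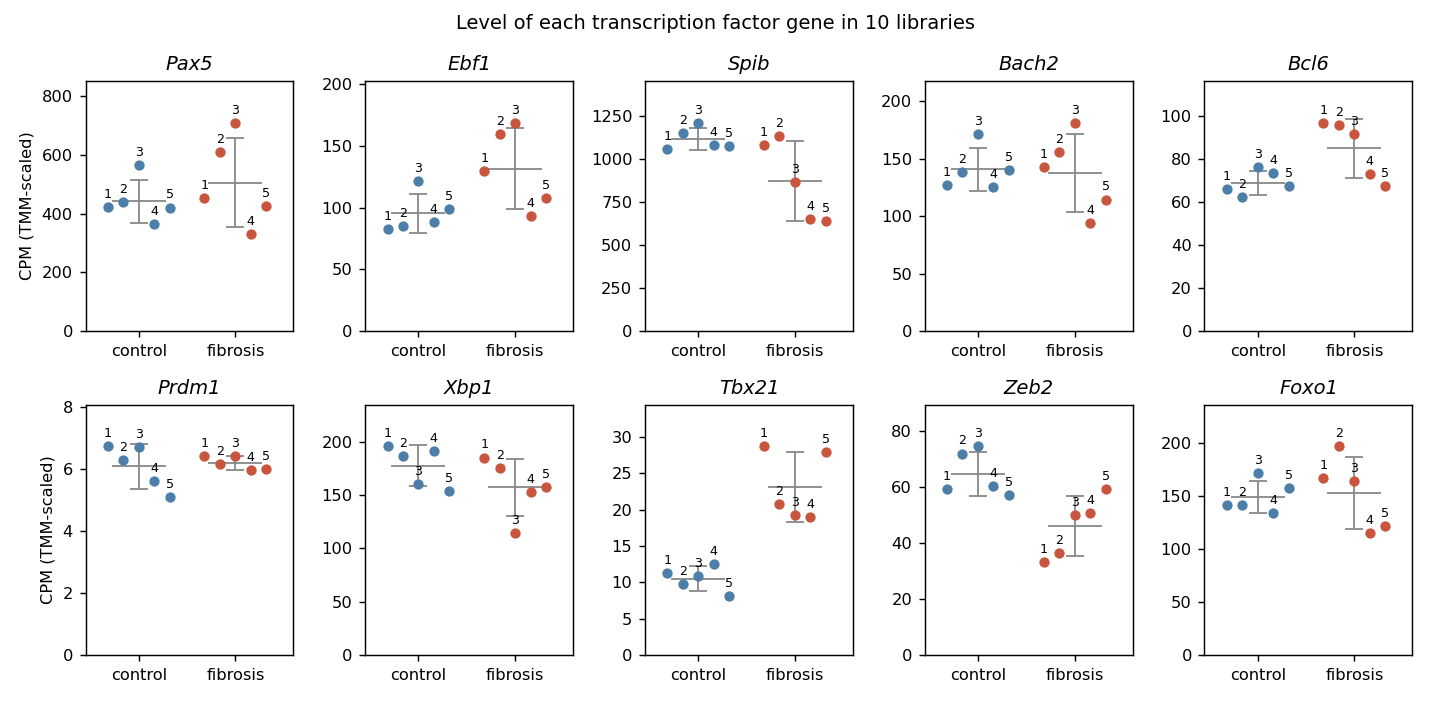
Level of each of the 10 genes in every library, as TMM-scaled CPM on a linear axis that starts at 0. Numbers are replicate numbers, the long bar is the group mean and the whiskers are the SD over 5 libraries; only for Tbx21 do the groups not overlap, with control libraries at 8.06 to 12.6 CPM and fibrosis libraries at 19.0 to 28.7 CPM.

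Per length, Spib was the highest of the 10 genes. Its deposited FPKM (fragments scaled by transcript length and library depth) was 389 ± 19.7 in control, at the 99.1 percentile of 12181 tested protein-coding genes. Xbp1 and Pax5 followed at 54.7 ± 6.14 and 49.8 ± 7.95 FPKM in control, and their ranges overlapped. Foxo1 at 17.2 ± 1.66 and Bach2 at 14.1 ± 1.76 FPKM overlapped as well, as did Bcl6 at 10.3 ± 0.777 and Ebf1 at 9.77 ± 1.55 FPKM. Tbx21 at 4.22 ± 0.679 and Zeb2 at 3.24 ± 0.381 FPKM overlapped in control. Prdm1 was the lowest, at 1.09 ± 0.125 FPKM, the 17.4 percentile.

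In fibrosis only neighbours with overlapping ranges changed places, Pax5 with Xbp1 and Ebf1 with Bcl6, and Tbx21, Zeb2 and Prdm1 kept their ranks. Tbx21 stood at 9.15 ± 1.90 FPKM, the 59.9 percentile against 39.8 in control, and its range overlapped that of Bcl6 above it (12.6 ± 2.33 FPKM). Below it, Zeb2 was at 2.26 ± 0.470 FPKM with no overlap with Tbx21. Foxo1, Bach2, Ebf1, Bcl6 and Tbx21 then formed a run in which each gene overlapped its neighbour. Spib remained first at 302 ± 86.5 FPKM and Prdm1 last at 1.09 ± 0.0666 FPKM.

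**Figure D2:**
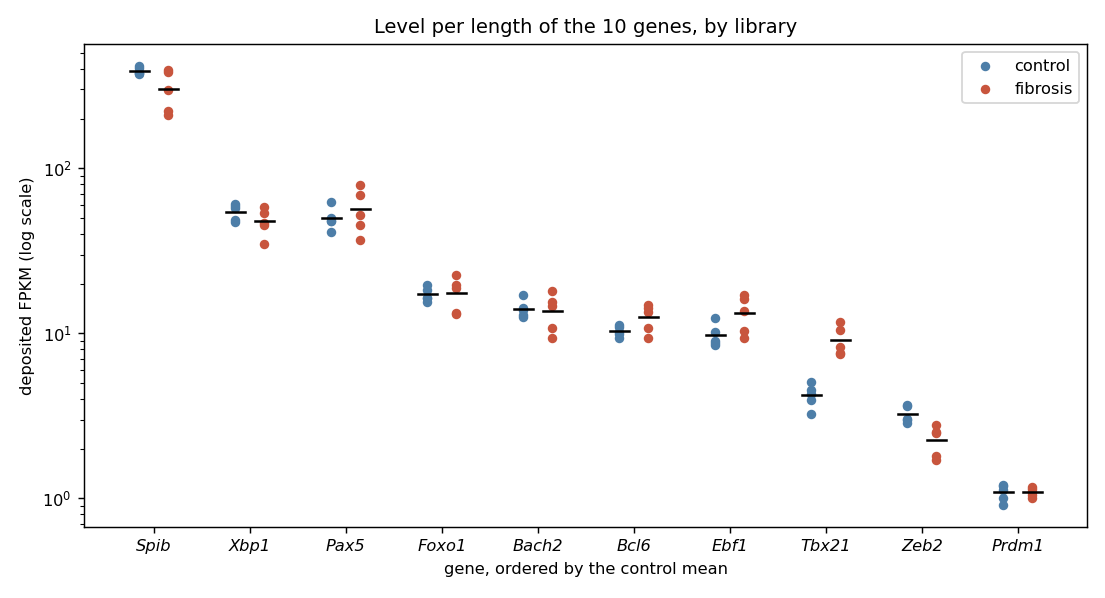
Deposited FPKM of the 10 genes on a log axis, in the order of their control means, with 1 point for each library and a bar at each group mean. The genes span from about 1.09 FPKM for Prdm1 to 389 FPKM for Spib in control, and Tbx21 moves from 4.22 to 9.15 FPKM.

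Ebf1, which opens B cell genes together with Pax5, stood at 129.9, 159.4, 168.9, 93.0 and 107.7 CPM in fibrosis 1 to 5. Its control libraries 1 to 5 were at 83.2, 85.3, 121.9, 88.2 and 98.9 CPM. Fibrosis 1, 2 and 3 lay above every control library, and fibrosis 4 and 5 lay within the control range. The group means were 132 ± 32.5 and 95.5 ± 16.0 CPM, a log2 fold change of 0.47 ± 0.16 (adjusted p = 0.0412 by edgeR; 0.00145 to 0.395 over 23 alternatives). The call was lost without fibrosis 1, 2 or 3 or without control 1, 2, 4 or 5, with changes between 0.34 and 0.48 (adjusted p of 0.0619 to 0.121 by edgeR). Without fibrosis 4 and 5 the change was 0.68 (adjusted p = 0.00145 by edgeR), and with the libraries scaled to the summed counts of 5 B cell genes, among them Ms4a1 and Cd79a, it was 0.14 (adjusted p = 0.395).

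The Ebf1 gene lies on chromosome 11 (44617317 to 45008091, plus strand, GRCm38, also called mm10). The sequence before 1 of its RefSeq starts is shown because Ebf1 was 1 of the 3 genes called and because this window holds a T-box site, the kind of site that T-bet binds. It is chr11:44619978-44620227, plus strand, of GRCm38.p6 from RefSeq, inside the annotated span of Ebf1 and over none of its exons. Capitals mark matches to GGTGTGA, a T-box site, on the reverse strand (TCACACC) and to GGAAGT, a site of Spi-B and PU.1, on the reverse strand (ACTTCC). A T-box site of these letters was found in 3.33% and a GGAAGT site in 19.7% of 32851 promoter windows of the same 250 bases, both strands searched. A match describes the letters and not binding.
Ebf1 promoter: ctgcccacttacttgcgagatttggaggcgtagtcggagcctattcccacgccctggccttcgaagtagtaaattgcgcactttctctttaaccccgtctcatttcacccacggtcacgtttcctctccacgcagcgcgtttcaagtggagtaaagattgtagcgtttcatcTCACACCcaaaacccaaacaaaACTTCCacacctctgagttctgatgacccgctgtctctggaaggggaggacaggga

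Pax5, the factor that commits cells to the B lineage, was at 451.7, 609.8, 709.5, 330.3 and 425.4 CPM in fibrosis 1 to 5. Control libraries ranged from 363 to 564 CPM, and the groups overlapped at both ends, with fibrosis 2 and 3 above and fibrosis 4 below all controls. The change of 0.19 ± 0.19 did not pass (adjusted p = 0.453 by edgeR). It was 0.42 without fibrosis 4 and 5 (adjusted p = 0.0494 by edgeR) and -0.14 when scaled to the B cell genes (adjusted p = 0.519). The log2 ratio of Ebf1 to Pax5 counts within a library does not depend on that scaling. It was -1.92 ± 0.11 in fibrosis and -2.21 ± 0.15 in control, a difference of 0.29 (exact two-sided permutation p = 0.0159, adjusted p = 0.0476 over 9 ratios). The groups overlapped in that fibrosis 3 lay below control 4. Without single libraries the difference was 0.25 to 0.33 (adjusted p from 0.0476 to 0.107, exact permutation). With 4 libraries against 5, as with 5 against 5, a ratio that is alone at the smallest exact p of 0.00794 has an adjusted p of 0.0714 over the 9 ratios, so passing also rests on the other ratios.

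Foxo1, which the B cell receptor and PI3 kinase hold in check and which drives homing and recombination genes, was at 166.9, 196.9, 164.3, 115.2 and 122.1 CPM in fibrosis 1 to 5. The control range was 134 to 172 CPM, so that fibrosis 2 lay above it and fibrosis 4 and 5 below it. The change was 0.04 ± 0.14 (adjusted p = 0.861 by edgeR). Scaled to the B cell genes it was -0.30 (adjusted p = 0.0200), by library size alone -0.07 (adjusted p = 0.759), and without fibrosis 4 and 5 it was 0.25 (adjusted p = 0.0615 by edgeR). Its relative Foxo3 fell, with means of 129 ± 11.95 CPM in control and 93.9 ± 10.7 CPM in fibrosis (-0.46 ± 0.10, adjusted p = 0.00279 by edgeR). The log2 ratio of Foxo1 to Foxo3 was 0.68 ± 0.25 in fibrosis and 0.21 ± 0.10 in control, a difference of 0.47 (exact two-sided permutation p = 0.0159, adjusted p = 0.0476). Without single libraries the difference was 0.41 to 0.57 (adjusted p from 0.0476 to 0.107, exact permutation, under the same limit).

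Spib was at 1081, 1133, 866, 650 and 640 CPM in fibrosis 1 to 5 and at 1061 to 1212 CPM in control. Fibrosis 1 and 2 lay within the control range and fibrosis 3, 4 and 5 below it. The change of -0.35 ± 0.16 did not pass (adjusted p = 0.0937 by edgeR). It passed without fibrosis 1 (-0.44, adjusted p = 0.0429 by edgeR) or fibrosis 2 (-0.47, adjusted p = 0.0294), and it was -0.11 without fibrosis 4 and 5 (adjusted p = 0.377). Scaled to the B cell genes, it was -0.70 (adjusted p = 0.000255 by edgeR). Its relative Spi1, the PU.1 gene, stood at 0.30 ± 0.13 (adjusted p = 0.0852 by edgeR). The log2 ratio of Spib to Spi1 was 1.35 ± 0.44 in fibrosis and 2.04 ± 0.27 in control, a difference of -0.69 (exact two-sided permutation p = 0.0159, adjusted p = 0.0476). Without single libraries it was -0.80 to -0.58 (adjusted p from 0.0476 to 0.125, exact permutation, under the same limit). PU.1 is also expressed by macrophages and neutrophils, whose markers were highest in fibrosis 4 and 5; their part in this ratio was not tested, and without those libraries the difference was -0.39 (adjusted p = 0.129, exact permutation).

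Bach2, a repressor that keeps B cells from becoming plasma cells, was at 142.6, 155.7, 181.4, 93.9 and 114.6 CPM in fibrosis 1 to 5 and at 126 to 172 CPM in control. Fibrosis 3 lay above and fibrosis 4 and 5 below the control range. The change was -0.03 ± 0.16 (adjusted p = 0.896 by edgeR). Its direction turned without fibrosis 4 (0.08, adjusted p = 0.688 by edgeR), fibrosis 5 (0.03, adjusted p = 0.917) or control 3 (0.05, adjusted p = 0.848), and it was 0.19 without fibrosis 4 and 5 (adjusted p = 0.205). The log2 ratio of Bach2 to Prdm1, 2 factors that repress one another's programme, was 4.43 ± 0.33 in fibrosis and 4.53 ± 0.21 in control (exact two-sided permutation p = 0.627, adjusted p = 0.705).

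Bcl6, the master repressor of the germinal centre B cell, was at 96.9, 96.0, 91.7, 73.2 and 67.4 CPM in fibrosis 1 to 5. Its control range was 62.4 to 76.2 CPM. Fibrosis 1, 2 and 3 lay above every control, and fibrosis 4 and 5 lay among them. The change of 0.30 ± 0.11 did not pass (adjusted p = 0.0527 by edgeR). It passed without fibrosis 4 (0.35, adjusted p = 0.0281 by edgeR), without fibrosis 5 (0.37, adjusted p = 0.0142) and without both (0.46, adjusted p = 0.000971). It was -0.02 when scaled to the B cell genes (adjusted p = 0.850). Against Prdm1, the log2 ratio of Bcl6 was 3.76 ± 0.20 in fibrosis and 3.51 ± 0.21 in control (exact two-sided permutation p = 0.0952, adjusted p = 0.171).

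Prdm1, the gene of the plasma cell repressor Blimp-1, was low in every library. It was at 6.42, 6.16, 6.40, 5.95 and 5.99 CPM in fibrosis 1 to 5 and at 6.72, 6.27, 6.70, 5.60 and 5.09 CPM in control 1 to 5. All 5 fibrosis libraries lay within the control range. The change was 0.02 ± 0.13 (adjusted p = 0.908 by edgeR), from 75 to 126 counts in a library. It stayed between -0.28 and 0.06 under 23 alternatives, and none of them gave a call (adjusted p from 0.197 to 0.982).

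The Prdm1 gene lies on chromosome 10 (44437177 to 44528501, minus strand). Its promoter window is shown because it holds matches to 3 of the 8 motifs searched, the most among the 15 windows of the 10 genes, in a gene whose level did not pass the test. It is chr10:44458749-44458998, minus strand, of GRCm38.p6 from RefSeq, inside the annotated span of Prdm1 and over none of its exons. Capitals mark, in the order they stand, GTAAACA (a forkhead site, the kind that Foxo1 binds), GGAAGT (Spi-B and PU.1) and CAGGTG (an E-box that ZEB factors bind). The forkhead letters occurred in 3.17% and the E-box letters in 17.2% of the 32851 windows.
Prdm1 promoter: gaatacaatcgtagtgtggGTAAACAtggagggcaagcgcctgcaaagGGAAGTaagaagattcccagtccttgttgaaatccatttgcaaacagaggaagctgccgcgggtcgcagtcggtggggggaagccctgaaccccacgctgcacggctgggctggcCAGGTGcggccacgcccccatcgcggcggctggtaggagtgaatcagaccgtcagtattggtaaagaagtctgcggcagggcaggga

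Xbp1, the driver of the secretory programme, was at 185.4, 175.4, 114.9, 153.4 and 157.8 CPM in fibrosis 1 to 5 and at 154 to 196 CPM in control. Fibrosis 3 was lowest, and the groups overlapped. The change was -0.18 ± 0.12 (adjusted p = 0.293 by edgeR), and -0.48 when scaled to the B cell genes (adjusted p = 0.0204). Gene counts do not separate the spliced, active form of the Xbp1 transcript from the unspliced one. Within libraries, the log2 ratio of Xbp1 to Prdm1 was 4.64 ± 0.28 in fibrosis and 4.87 ± 0.18 in control (exact two-sided permutation p = 0.206, adjusted p = 0.310).

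Tbx21 was at 28.7, 20.8, 19.2, 19.0 and 27.9 CPM in fibrosis 1 to 5 and at 11.3, 9.74, 10.9, 12.6 and 8.06 CPM in control 1 to 5. All 5 fibrosis libraries lay above all 5 controls, as for 11.4% of all tested genes; in 25.4% of tested genes the groups did not overlap in either direction (14% lower), against 1 of the 10 factors. The means were 23.1 ± 4.79 and 10.5 ± 1.70 CPM, a log2 fold change of 1.14 ± 0.16 (adjusted p = 0.000156 by edgeR). Under 23 alternatives it kept its call and lay between 0.84 and 1.21 (adjusted p from 4.47e-12 to 0.00352). Without fibrosis 4 and 5 it was 1.13 (adjusted p = 0.000254 by edgeR), and 0.84 when scaled to the B cell genes.

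NK and T cells also express Tbx21, and markers of both were higher in part. Of 13 NK markers tested, 7 were higher and 0 lower by edgeR (0 lower also at an unadjusted p under 0.05, by DESeq2 and by limma voom). The counts were 4 higher and 1 lower without fibrosis 4 and 5, and 2 higher and 0 lower on the scale of the B cell genes. Of 19 T cell markers tested, 5 were higher and 0 lower by edgeR, against 18.6% and 17.2% of all tested genes. By DESeq2 9 were higher and by limma voom 3, with 0 lower. Without fibrosis 4 and 5 the T cell counts were 3 and 1, and on the scale of the B cell genes 1 and 0. The median change was 0.88 for T cell and 0.62 for NK markers, and 0.23 and 0.44 without fibrosis 4 and 5. Ncr1 stood at 11.6 against 7.43 CPM and Klrb1c at 13.4 against 8.28 CPM. The summed NK marker level was 159 to 268 CPM in fibrosis and 119 to 197 CPM in control, so the groups overlapped, and the summed T cell level was 135 to 285 and 112 to 157 CPM. In fibrosis 1 to 5 the NK sum was 216, 161, 159, 268 and 203 CPM, and within groups it had an r of 0.43 with Tbx21 over 10 libraries, a description. No NK or T cell marker was at 0 throughout a group, and their part in the rise of Tbx21 was not tested. Eomes, the other T-box gene of NK cells, stood at 0.10 ± 0.22 (adjusted p = 0.759 by edgeR), and its direction turned with scaling to the B cell genes (-0.20).

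The Tbx21 gene lies on chromosome 11 (97098071 to 97115331, minus strand). The 250 bases before its start, chr11:97115332-97115581, minus strand, of GRCm38.p6 from RefSeq, are shown as the promoter of the gene with the largest change among the 10. Capitals mark GGAAGT on the reverse strand (ACTTCC) and the E-box CAGGTG that ZEB factors bind. No T-box site of the letters searched stands in this window.
Tbx21 promoter: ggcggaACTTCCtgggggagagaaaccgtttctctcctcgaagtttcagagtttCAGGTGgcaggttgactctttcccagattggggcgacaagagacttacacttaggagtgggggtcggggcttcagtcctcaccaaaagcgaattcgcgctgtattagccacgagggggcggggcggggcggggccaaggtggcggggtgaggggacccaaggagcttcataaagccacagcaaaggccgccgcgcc

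Zeb2 was at 33.4, 36.5, 50.01, 50.8 and 59.1 CPM in fibrosis 1 to 5 and at 59.3, 72.0, 74.5, 60.4 and 57.1 CPM in control 1 to 5. Fibrosis 1 to 4 lay below every control, and fibrosis 5 lay within the control range. The means were 46.0 ± 10.8 and 64.7 ± 7.98 CPM, a log2 fold change of -0.49 ± 0.15 (adjusted p = 0.0207 by edgeR; 6.88e-05 to 0.0519 over 23 alternatives). The call was lost without control 2 (-0.45, adjusted p = 0.0519 by edgeR). The change was -0.69 without fibrosis 4 and 5 (adjusted p = 0.00260) and -0.76 when scaled to the B cell genes (adjusted p = 0.0161). Its relative Zeb1 stood at 0.09 ± 0.12 (adjusted p = 0.576 by edgeR), with the direction turned by library size alone (-0.01) and by scaling to the B cell genes (-0.22). The log2 ratio of Zeb2 to Zeb1 was 0.65 ± 0.48 in fibrosis and 1.25 ± 0.15 in control, a difference of -0.60 (exact two-sided permutation p = 0.0317, adjusted p = 0.0714).

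Macrophages and monocytes also express Zeb2. The summed macrophage or monocyte marker level was 2000 to 6771 CPM in fibrosis and 3658 to 5925 CPM in control, and of 20 such markers 1 at most was called in either direction by edgeR, and 9 were lower by limma voom. Without fibrosis 4 and 5, where the Zeb2 change was -0.69, 14 of the 20 were lower and 0 higher. Platelet or megakaryocyte markers were higher for 13 of 13 tested, with sums of 419 to 1676 CPM in fibrosis and 260 to 314 CPM in control, and within groups they rose and fell with Zeb2 (Pearson r = 0.89 over 10 libraries, a description). The part of these cells in the fall of Zeb2 was not tested. An antisense gene, Zeb2os, overlaps Zeb2 on the opposite strand with 442 counts over all libraries, 4.74% of those of Zeb2, and stood at 0.38 ± 0.37 (adjusted p = 0.446 by edgeR). The labels do not state whether counting used the strand, so reads of these overlapping genes could be mixed.

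The Zeb2 gene lies on chromosome 2 (44983632 to 45117395, minus strand). The window chr2:45117443-45117692, minus strand, of GRCm38.p6 from RefSeq, is printed because Zeb2 was the gene called lower; it holds no match to any of the 8 motifs, which says only that these letters are not in this window.
Zeb2 promoter: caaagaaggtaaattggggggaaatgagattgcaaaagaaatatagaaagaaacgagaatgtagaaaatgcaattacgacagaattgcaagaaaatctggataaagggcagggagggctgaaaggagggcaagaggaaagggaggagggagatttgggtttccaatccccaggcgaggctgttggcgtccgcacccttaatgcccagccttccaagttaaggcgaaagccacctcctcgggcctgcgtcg

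Beside the motifs named above, the letters CCCNNGGG (EBF), TGAGTCA (Bach and AP-1), TGACGTG (XBP1) and AGTGAAAG (Blimp-1) were searched on both strands in the 15 windows of the 10 genes. EBF letters stood in windows of Spib and Foxo1, against 11.8% of all windows. TGAGTCA stood in 1 of 4 Zeb2 windows, against 4.46% of all. XBP1 letters (1.65% of all windows) and Blimp-1 letters (1.09%) stood in none of the 15.

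**Figure D3:**
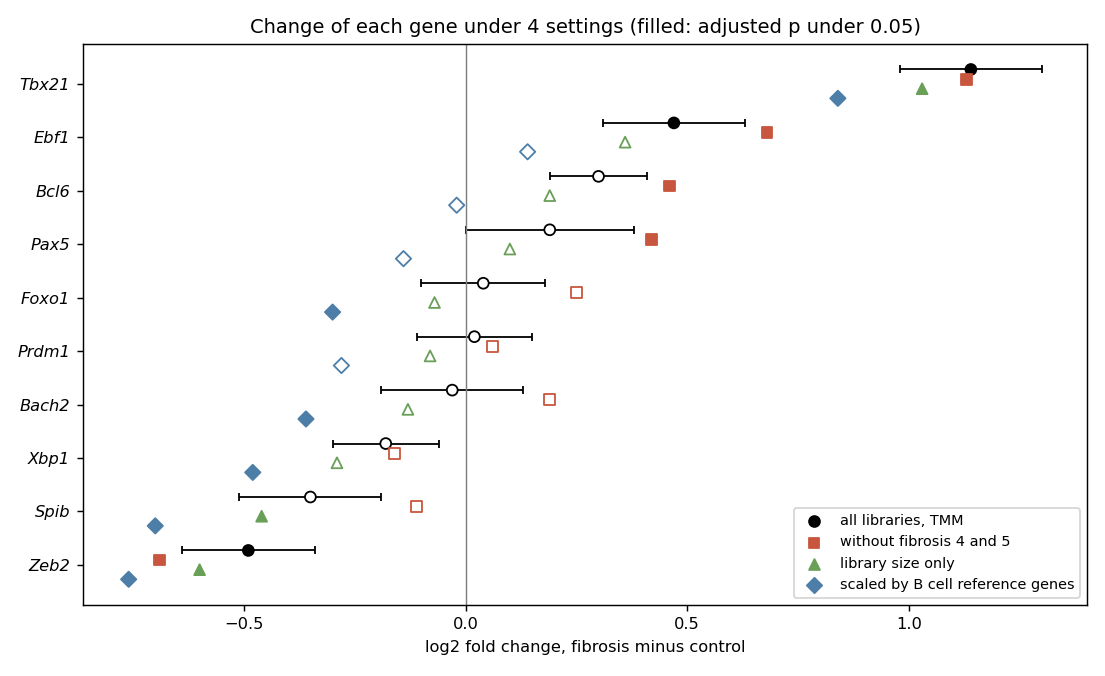
Log2 fold change of each gene, fibrosis minus control, under 4 settings, with whiskers of 1 standard error on the analysis of all libraries and filled symbols where the adjusted p is under 0.05. Tbx21 is filled and right of 0 under all 4 settings (0.84 to 1.14) and Zeb2 filled and left of 0, while Ebf1 moves from 0.14 to 0.68.

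The scale of the comparison touched the remaining genes. Scaling by library size alone shifted the median of all genes by -0.11 on the log2 scale, and scaling to the 5 B cell genes by -0.30. Calls were 2654 higher and 2451 lower in the main analysis (52.0% higher), against 35.0% higher by library size and 12.1% higher with the B cell genes. Relative to the B cell genes, Tbx21 was the only 1 of the 10 called higher, and Zeb2, Spib, Bach2, Xbp1 and Foxo1 were called lower.

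Within groups, the 10 genes fell into a set that varied together and genes that did not. After each group mean was subtracted, Pearson's r of log2 CPM over the 10 libraries was 0.97 for Ebf1 with Bach2, 0.96 for Pax5 with Bach2 and 0.93 for Pax5 with Ebf1. Foxo1 followed Spib (0.91), Ebf1 (0.89), Bach2 (0.87) and Bcl6 (0.84). Tbx21 lay near 0 with Pax5 (-0.21), Ebf1 (-0.19), Spib (0.06) and Zeb2 (-0.08), and its highest value was with Xbp1 (0.60). Zeb2 ran against Spib (-0.72) and Bcl6 (-0.66). These values describe 10 libraries that share the composition differences noted above: the macrophage or monocyte sum ran against Ebf1 (-0.94) and Bach2 (-0.92), the B cell sum followed Spib (0.98), and the stroma or endothelium sum followed Ebf1 (0.95), Pax5 (0.91) and Bach2 (0.90). The latter sum was 188.5 to 266.5 CPM in fibrosis and 161.5 to 193.1 CPM in control, with 1 of 5 tested markers higher, and its part in the Ebf1 change was not tested. Of the 14 stroma or endothelium markers only these 5 passed the filter. In each group 2 of the 14 had no count in any library, so the sum rests on few genes. Libraries also differed in how levels ran with transcript length. The measure was the median deviation of the longest genes (top 25% of length) minus that of the shortest (bottom 25%). It was -0.06, 0.12, 0.19, -0.30 and -0.20 in fibrosis 1 to 5. In control 1 to 5 it was -0.01, 0, 0.22, -0.09 and 0.07. The part of this trend in the values of r was not tested.

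**Figure D4:**
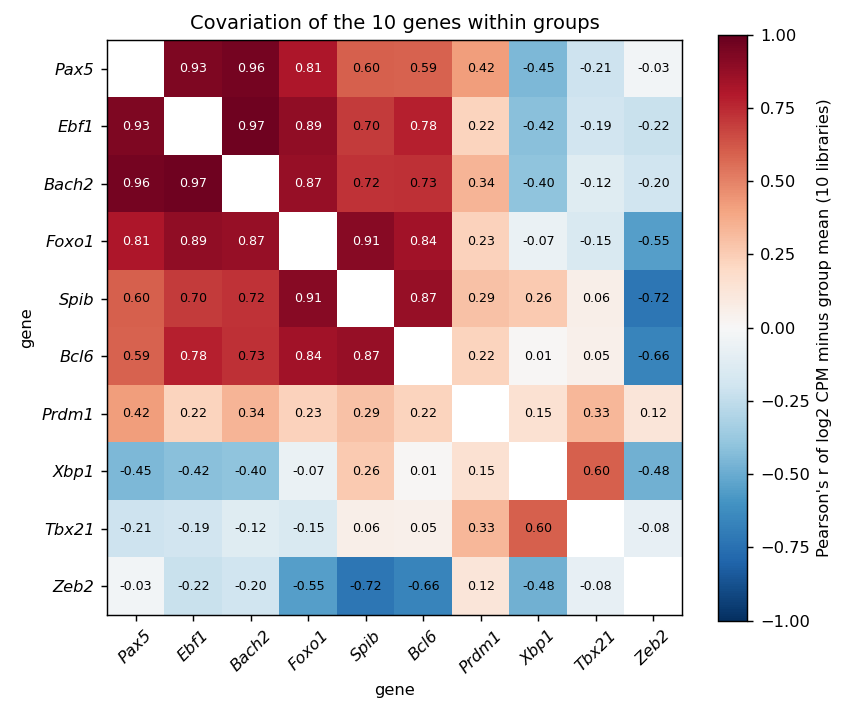
Pearson's r between each pair of the 10 genes, from log2 CPM minus the group mean over 10 libraries, shown by colour and number. Pax5, Ebf1, Bach2, Foxo1, Spib and Bcl6 share positive values of 0.59 to 0.97, whereas Tbx21, Zeb2, Prdm1 and Xbp1 stand outside that block.

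The genes most like each factor within groups were ranked among 10751 protein-coding genes by the same r. Nearest to Tbx21 were Crlf2, a cytokine receptor gene (r = 0.927), and Cxcr3, a chemokine receptor gene and known T-bet target (r = 0.914). Both were also called higher, Crlf2 at 0.63 ± 0.08 and Cxcr3 at 1.28 ± 0.17 (adjusted p = 0.000114 and 0.000135 by edgeR). Nearest to Ebf1 was Ablim1 (r = 0.984), to Pax5 Lrch3 (0.995) and Ikzf3, the Aiolos gene (0.994), and to Foxo1 Zmynd8 (0.996). Nearest to Zeb2 was the integrin gene Itga2 (0.956), which platelets also carry and which rose by 1.62 ± 0.28 (adjusted p = 0.000712 by edgeR), against the direction of Zeb2. Prdm1 had the lowest leading value, 0.885 with Abcb1b.

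**Figure D5:**
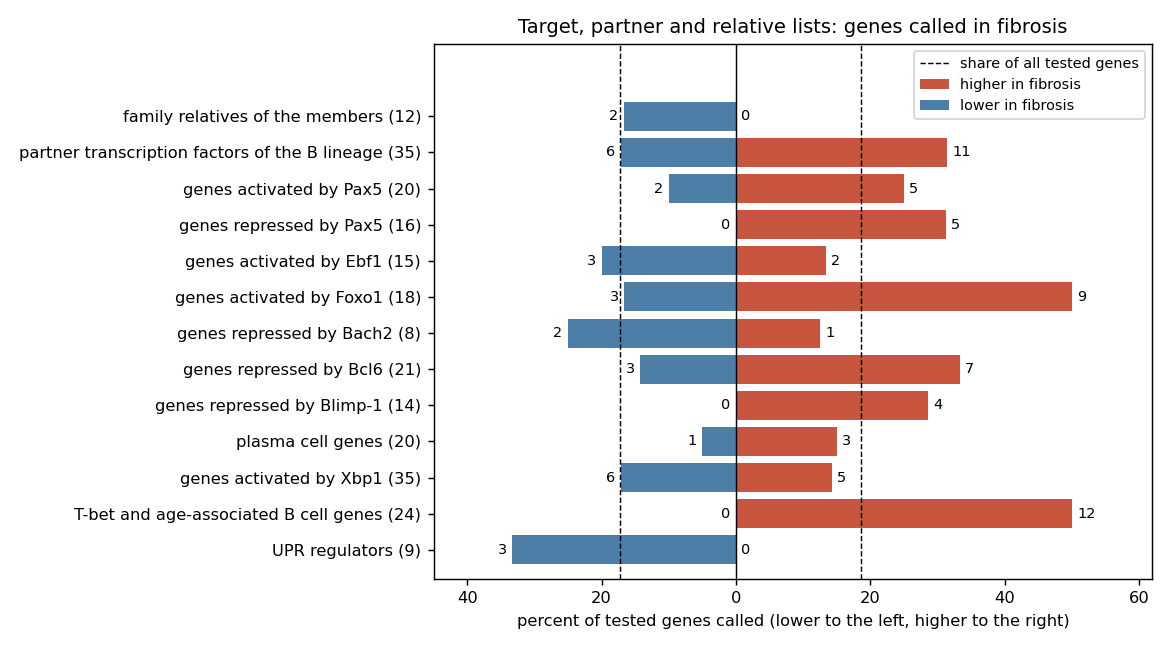
Share of the tested genes of each list that was called lower (left) or higher (right) in fibrosis, with the number called beside each bar and the number tested in parentheses. Dashed lines mark the shares over all tested genes, 17.2% lower and 18.6% higher; the T-bet list has 12 of 24 higher and 0 lower.

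The known targets and partners of the 10 factors were read from the same fit. Their lists, too, were drawn up with earlier results of these data known. Counts of the main analysis stand beside its background of 18.6% higher and 17.2% lower. Other settings have other backgrounds. Of all calls, 49.5% were higher without fibrosis 4 and 5 and 35.0% by library size alone. The shares of all tested genes called in those fits and without single libraries are not given here. Counts of these settings are therefore not set against a background. On the scale of the B cell genes, 643 of 14283 tested genes were higher and 4674 lower, so counts on that scale are to be read against these. The median over all tested genes was 0.05 in the main analysis. Some lists hold factors of the 10. Beside those on the Blimp-1 list, Pax5 and Foxo1 are on the list of genes that Ebf1 activates. Bach2 is among the genes that Pax5 activates and Xbp1 among those that it represses. Prdm1 is among the genes that Bach2 and Bcl6 repress. Of 24 genes tied to T-bet or to age-associated B cells, 12 were higher and 0 lower by edgeR, with a median of 0.47; the number lower was also 0 at an unadjusted p under 0.05 and by DESeq2, and 1 by limma voom. Cxcr3 rose from 8.83 ± 1.64 to 21.4 ± 4.80 CPM. The ectonucleotidase gene Nt5e rose by 1.85 ± 0.25 (adjusted p = 0.000140 by edgeR), the Fc receptor-like gene Fcrl5 by 0.74 ± 0.11 (adjusted p = 0.000253) and Itgax, the CD11c gene of these cells and of dendritic cells, by 0.62 ± 0.08 (adjusted p = 0.000131). Ighg2c, the heavy chain gene to which T-bet directs switching, was named after its values were seen. It rose from 29.8 ± 16.2 to 130 ± 91.2 CPM (2.12 ± 0.50, adjusted p = 0.00688 by edgeR). Its call was lost without a filter (adjusted p = 0.0514 by edgeR). Other switched heavy chain genes are not given here, so whether the rise is particular to Ighg2c is not shown. Without fibrosis 4 and 5, 10 were higher and 1 lower with a median of 0.23, and with the B cell genes as the scale 8 and 1. Dendritic cell markers were higher for 9 of 17 tested, with sums of 1639 to 2384 CPM in fibrosis and 1408 to 1663 CPM in control, and their part in these counts was not tested.

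Of 18 genes that Foxo1 activates, 9 were higher and 3 lower, with a median of 0.38, although Foxo1 itself stood at 0.04. The lymph node homing gene Ccr7 (0.69 ± 0.12) and the stress gene Sesn1 (0.86 ± 0.14) rose (adjusted p = 0.000589 and 0.000440 by edgeR). Rag1, the recombinase gene of immature B cells, fell by 1.95, to 6.40 ± 1.45 CPM in fibrosis against 24.9 ± 5.70 CPM in control (adjusted p = 1.90e-05 by edgeR). With the B cell genes as the scale, 4 were higher and 4 lower.

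Of 20 genes that Pax5 activates, 5 were higher and 2 lower, with a median of 0.30, against 3 and 6 with a median of -0.03 on the scale of the B cell genes. The complement receptor gene Cr2 rose by 1.32 ± 0.14 and Cd55, whose product shields cells from complement, by 1.05 ± 0.17, while Cplx2 fell by 1.75 (adjusted p = 3.74e-05, 0.000512 and 4.17e-05 by edgeR). The number higher was 12 without fibrosis 4, 8 without fibrosis 5 and 11 without both. Of 16 genes that Pax5 represses, 5 were higher and 0 lower by edgeR (0 lower at an unadjusted p under 0.05, 0 by DESeq2 and 1 by limma voom), with a median of 0.21. Among them were Flt3, a cytokine receptor gene of progenitors and dendritic cells (1.22 ± 0.08, adjusted p = 9.37e-06 by edgeR), and Ly6d (0.58 ± 0.11, adjusted p = 0.00161), both also on the dendritic cell list. That number was 3 without fibrosis 2, fibrosis 5 or control 3 and 2 without control 1, 2 or 5, and without fibrosis 1 and fibrosis 2 the number lower was 3 and 1. On the scale of the B cell genes 1 was higher and 3 lower, and without fibrosis 4 and 5 the counts were 4 and 1.

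Of 15 genes that Ebf1 activates, 2 were higher and 3 lower, with a median of 0.24. Cd40, the receptor for T cell help, rose by 0.54 ± 0.07 (adjusted p = 0.000135 by edgeR), while Vpreb3 and Igll1, of the precursor receptor apparatus, fell by 0.63 and 3.40 (adjusted p = 0.00106 and 0.00240). Igll1 was near the floor, with 15 counts over all fibrosis and 189 over all control libraries (means of 0.199 and 2.147 CPM). Its groups overlapped, its SE was 0.70, and its change ranged from -5.48 to -0.84 over the alternatives. The number higher was 7 without fibrosis 4, 5 without fibrosis 5 and 10 without both, and on the scale of the B cell genes 0 were higher and 5 lower.

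Of 21 genes that Bcl6 represses, 7 were higher and 3 lower, with a median of 0.30, against 3 and 5 with a median of 0.03 on the scale of the B cell genes. Cd69, an early activation gene, rose by 1.15 ± 0.13 and Gpr183, a receptor that guides B cells in the follicle, by 0.61 ± 0.07 (adjusted p = 3.87e-05 and 6.91e-05 by edgeR), while the cyclin gene Ccnd2 fell by 0.51 (adjusted p = 0.00334). Of 8 genes that Bach2 represses, 1 was higher and 2 lower, with a median of 0.11 (-0.11 without fibrosis 4 and 5 and -0.19 on the scale of the B cell genes). Both of the latter belong to the oxidative stress response: Gclm fell by 1.13 and Nqo1 by 1.34 (adjusted p = 0.000165 and 0.00256 by edgeR). The 1 higher was Cd86 (0.51 ± 0.17, adjusted p = 0.0274 by edgeR; 0.00210 to 0.440 over 23 alternatives), whose call was lost without fibrosis 4 or 5 or control 2, 3 or 5 (changes of 0.33 to 0.52, adjusted p up to 0.0619). It was 0.21 without fibrosis 4 and 5 and 0.26 on the scale of the B cell genes (adjusted p = 0.0900 and 0.440 by edgeR).

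Genes that Blimp-1 represses number 14, and 5 of them are among the 10 factors described here (Pax5, Spib, Bcl6, Bach2 and Ebf1). Of the 14, 4 were higher and 0 lower by edgeR, with a median of 0.31 (2 lower at an unadjusted p under 0.05, 0 by DESeq2 and 0 by limma voom). By library size alone 1 was higher and 2 lower, and on the scale of the B cell genes 1 was higher and 4 lower, with a median of -0.01. The number higher was 8 without fibrosis 4, 2 without fibrosis 3 or control 1, and 1 without fibrosis 1 or 2 or control 2, 4 or 5; the number lower was 2 without fibrosis 1 or 2 and 1 without control 5.

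Of 20 plasma cell genes tested, 3 were higher and 1 lower, with a median of 0.11. Without fibrosis 4 and 5, 4 were higher and 0 lower of 21 tested by edgeR, and on the scale of the B cell genes 0 were higher and 7 lower. Mzb1, a chaperone gene of antibody-secreting and marginal zone B cells, rose by 0.58 ± 0.09 and the surface receptor gene Slamf7 by 0.37 ± 0.08 (adjusted p = 0.000353 and 0.00342 by edgeR). Sdc1, the CD138 gene, Jchain and Irf4 were looked up after their values were seen and did not pass, at -0.37 ± 0.19, 0.30 ± 0.21 and -0.11 ± 0.11 (adjusted p = 0.155, 0.286 and 0.478 by edgeR). The 1 lower gene, Derl3 (-0.49 ± 0.18, adjusted p = 0.0429 by edgeR; 0.000996 to 0.185 over 23 alternatives), lost its call without fibrosis 3, 4 or 5 or any 1 control library (-0.53 to -0.39, adjusted p up to 0.0997). The number lower was 2 without fibrosis 1 and 0 without fibrosis 4 or 5 or any 1 control library.

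Of 35 genes that Xbp1 activates, 5 were higher and 6 lower, with a median of -0.02. The counts were 1 higher and 14 lower on the scale of the B cell genes, 2 and 8 by library size alone and 4 and 3 without fibrosis 4 and 5. The cargo receptor gene Lman1 fell by 0.49 and Rpn1, of the glycosylation complex, by 0.30 (adjusted p = 0.000576 and 0.00937 by edgeR), while the oxidoreductase gene Ero1lb rose by 0.50 ± 0.12 (adjusted p = 0.00431). The number higher was 3 without fibrosis 2 or control 2, 3 or 4 and 2 without fibrosis 5 or control 5, and the number lower was 3 without control 1. Of 9 regulators of the unfolded protein response, 0 were higher and 3 lower by edgeR, with 1 higher at an unadjusted p under 0.05, 0 by DESeq2 and 1 by limma voom. Ern1, the IRE1 enzyme that splices the Xbp1 transcript, was lower, at 27.7 ± 4.17 CPM against 40.6 ± 3.57 CPM (-0.55 ± 0.11, adjusted p = 0.00196 by edgeR). Atf4 fell by 0.33 and Ppp1r15a by 0.44 (adjusted p = 0.0118 and 0.0156 by edgeR). The number higher was 1 without fibrosis 4, and 5 were lower on the scale of the B cell genes.

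Partner factors of the B lineage were higher for 11 and lower for 6 of 35, with a median of 0.15. Id2, an inhibitor of E proteins, rose by 1.24 ± 0.18 and Bmi1, a Polycomb gene, by 0.70 ± 0.11 (adjusted p = 0.000285 and 0.000466 by edgeR). Irf8, which acts with Spi-B and PU.1, rose from 623 ± 21.1 to 911 ± 105 CPM (0.55 ± 0.09, adjusted p = 0.000681 by edgeR). Myb, a progenitor factor, was lower, at 18.9 ± 4.39 CPM against 56.1 ± 3.87 CPM (-1.57 ± 0.14, adjusted p = 1.36e-05 by edgeR), and Gfi1 fell by 1.26 (adjusted p = 0.000470). All 15 cycling markers were also lower, at sums of 1003 to 1544 against 2711 to 3503 CPM, and erythroid markers were lower for 14 of 19 tested; their part in the falls of Myb and Gfi1 was not tested. The number of partners higher was 7 without fibrosis 3 or control 1 or 2. With the B cell genes as the scale, 3 were higher and 13 lower, and by library size alone 6 and 7. Family relatives of the 10 factors were called higher for 0 and lower for 2 of 12 tested, Foxo3 and Bcl6b (-1.41 ± 0.34, adjusted p = 0.00575 by edgeR), and 1 was higher without fibrosis 3 or without fibrosis 4. At an unadjusted p under 0.05, 2 relatives were higher, by DESeq2 0 and by limma voom 1.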

How the data were processed

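Counts per gene and FPKM were deposited for 10 libraries of poly-A selected RNA. Per the file headers, the authors deposited raw counts and FPKM, the latter a level per length and depth. The submitters' processing notes name the build GRCm38, also called mm10; for the aligner, counter and strand setting, nothing is recorded in the labels. Libraries were grouped by the disease state label. Counts were tested with edgeR 4.0.16 (R 4.3.3, TMM, filterByExpr, robust quasi-likelihood), which kept 14283 of 54532 genes, 99.9% of counts; all 10 factors passed. No pair of libraries of the same group agreed within sampling noise (chi-square per degree of freedom of at least 5.81). The 9 log2 ratios of counts plus 0.5 were tested over 252 assignments. On simulated counts the fit recovered 92 of 98 genes changed by 1 and 19 of 100 changed by 0.5 on the log2 scale, with 4 false calls among 14138 genes. The simulation gave every gene the same scatter, changed few genes and had no libraries that stood apart. Its rates therefore need not hold for the data. Alternatives were DESeq2 1.42.0, limma 3.58.1 (voom, and log2 of the deposited FPKM plus 1 or 0.1), other scalings and filters, a replicate block, leaving out libraries, and, added after seeing the data, an offset for gene length. Factors and lists were chosen with earlier results of these data known. Named genes were the 10 factors, the relatives used in ratios, up to 4 genes of smallest p in each list, the 3 nearest genes by r with a mean of at least 2 CPM, and overlapping genes; genes chosen otherwise are marked, beside Ncr1 and Klrb1c as defining NK markers. Promoters came from RefSeq (GRCm38.p6) and were matched for all 10 symbols. A gene that the naming rule took is not reported here.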

Additional observations from a re-analysis of the deposited data

How the results depend on the processing

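The call of Tbx21 held under all 23 alternatives. The number of the 10 factors called higher (2) was 1 by library size alone, with the B cell scale, in the 3 FPKM fits and at an adjusted p under 0.01, 4 without fibrosis 4 and 5, and 1 to 3 without single libraries. The number called lower (1) was 2 by library size, without a filter and with the replicate block, 5 with the B cell scale, 0 at an adjusted p under 0.01, and 0 to 2 without single libraries. Over all genes, 643 were higher and 4674 lower with the B cell scale, and 1547 were higher at an adjusted p under 0.01. For the other settings the shares of all tested genes called are not given here. The counts of factors there are therefore not set against a background.

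Directions turned as follows, with no call unless stated. With the B cell scale Pax5 was at -0.14, Bcl6 -0.02, Prdm1 -0.28, Foxo1 -0.30 (adjusted p = 0.0200 by edgeR), Zeb1 -0.22, Prdm2 -0.02, Eomes -0.20, Hmox2 -0.11, Atf6 -0.07 and Jchain -0.01. By library size Prdm1 was at -0.08, Foxo1 -0.07 and Zeb1 -0.01. Without a filter Prdm1 was at -0.03 and Foxo1 at -0.01, and with log2(FPKM + 0.1) Foxo1 was at -0.01. With voom Bach2 was at 0.09 and Eomes at -0.05. Without fibrosis 4 and 5 Bach2 was at 0.19 and Irf4 at 0.05. Without single libraries Bach2 ranged from -0.17 to 0.08, Prdm1 from -0.04 to 0.06, Foxo1 from -0.07 to 0.12 and Eomes from -0.02 to 0.23.

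The 3 ratios that passed did not pass without fibrosis 4 and 5 (Ebf1 to Pax5 0.28, Spib to Spi1 -0.39, Foxo1 to Foxo3 0.62) or with libraries paired by number (0.29, -0.69 and 0.47; exact permutation adjusted p = 0.141 for each), where 5 pairs cannot reach the threshold. With 3 libraries against 5, the smallest exact p is 0.0179, or 0.161 adjusted for a ratio alone at it, and Foxo1 to Foxo3 was at that p. Without single libraries they ranged from 0.25 to 0.33, -0.80 to -0.58 and 0.41 to 0.57. Bach2 to Prdm1 was 0.12 without fibrosis 4 and 5 and -0.19 to 0.02 without single libraries, and Bach2 to Bach1 was -0.06 to 0.18. The cause of these shifts was not tested.

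The labels tie same-numbered libraries by nothing but the number, and whether they shared anything else is not stated. Their deviations correlated at -0.248 to 0.419, over 0.1 in 3 of 5 pairs, and 3 of 5 numbers correlated best with their own. With the replicate block Spib was also called lower (-0.39, adjusted p = 0.0470 by edgeR). Of 64 other named genes 54 were called, 31 of them under every alternative, and none (0) of the 54 turned direction. Many of the 64 were named for the smallest p values of their lists in the main fit. That choice favours calls and kept directions, so these counts do not measure how stable other genes are. The share called is therefore not set against the background of all tested genes.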
